A study of Homo sapiens with 10 samples.

Results

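The genes examined were 35 genes of glycolysis and glucose handling among the 31017 genes of the RNA-seq count table. They were chosen by name: 4 transporters of glucose and lactate, 16 glycolytic enzymes, both lactate dehydrogenase subunits, 6 genes of pyruvate dehydrogenase and its kinases, 3 PFKFB regulators, 3 genes of the pentose phosphate pathway and HIF1A. Of these, 34 were listed under the same symbol, and PKM was found by its gene identifier under its older symbol. For promoter contacts, the bait of a gene was the HindIII fragment that held its start in the count table, and all 35 genes had such a bait.

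Expression was measured by RNA-seq and promoter contacts by Promoter Capture Hi-C (PCHi-C) in H9 human embryonic stem cells (ESCs), an established pluripotent line, and in neuroectodermal cells (NECs) obtained from the same line after 7 days of differentiation. Each cell type had 2 RNA-seq libraries and 2 PCHi-C replicates, so no exact permutation test of a single value could reach 0.05. All samples thus derive from 1 line. The ESCs came from WiCell and were grown in Pluripro medium and matrix, in air with added CO2. The NECs were made by an existing protocol and harvested as spheres on day 7. Culture conditions, the medium and growth as spheres among them, and the change in cell state thus cannot be told apart. The ESC libraries were sequenced in 1 lane and the NEC libraries in another, so lane and cell type cannot be told apart. The labels call the 2 libraries of a cell type biological replicates without saying how they were kept separate, and p-values measure the spread between these libraries only.

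Total counts ran from 19234087 to 25356382 per library, so that 3 counts, used as the detection floor, corresponded to 0.121 to 0.159 CPM (CPM being the count of a gene scaled to the depth of its library). Of the lists of marker genes, all 10 pluripotency genes fell, and their summed level was 6779 and 7281 CPM in ESCs and 1099 and 1688 CPM in NECs. Of 9 tested neuroectoderm genes, 8 rose past the fold threshold and OTX2 fell, with a summed level of 191 and 137 CPM in ESCs and 555 and 458 CPM in NECs, and the defining markers SOX1 and PAX6 were at 1.13 to 2.81 CPM in ESCs. The NEC libraries also held neural crest markers, of which 6 of 10 tested rose, with a summed level of 179.9 and 87.8 CPM in ESCs and 316 and 203 CPM in NECs. The NEC libraries stood apart in these markers: 6 of the 10 neural crest genes were more than 2-fold higher in NEC replicate 1 (SOX10 at 18.4 and 0.689 CPM, TFAP2B at 15.9 and 1.46 CPM), and 6 of the 10 pluripotency genes were more than 2-fold higher in NEC replicate 2 (POU5F1 at 31.0 and 111 CPM). Mesendoderm markers summed to 92.7 and 221 CPM in ESCs and 8.38 and 8.47 CPM in NECs, and 8 of 9 were more than 2-fold higher in ESC replicate 2 than in ESC replicate 1. The part that these differences in cell make-up play in the values below was not tested. In bulk samples, fewer cells of a type and less RNA per cell cannot be told apart.

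Glycolysis splits glucose into pyruvate in the cytosol. Pyruvate is then either reduced to lactate by lactate dehydrogenase and exported, or taken into mitochondria and oxidised by the pyruvate dehydrogenase complex, which the PDK kinases switch off by phosphorylation. Many genes of this pathway are targets of the oxygen-sensitive factor HIF1A, which binds sites with ACGTG or GCGTG at their core, and pluripotent cells in culture are known for high glycolytic flux with lactate export.

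Most of these genes were lower in NECs than in ESCs. Of the 34 that passed the filter on low counts, 10 fell past a log2 fold change of 1.5 at an adjusted p under 0.05 and 0 rose past it, while 9.68% and 11.4% of the 17564 tested genes were called lower and higher by the same rule (edgeR's quasi-likelihood test, Benjamini-Hochberg adjustment over all tested genes, n = 2 libraries per cell type). By adjusted p alone, 24 fell and 2 rose, against 29.7% of all tested genes lower and 31.5% higher. Their median log2 fold change was −0.82, and that of all tested genes was 0.014. In 24 of the 34 both ESC libraries lay above both NEC libraries, which held for 41.0% of all tested genes, and in 3 (PFKM, PDK2 and PGD) both NEC libraries lay above both ESC libraries, which held for 42.8%. The remaining gene, PDK4, an inhibitory kinase of pyruvate dehydrogenase, was at the floor with 4, 3, 1 and 2 counts and was not tested.

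The ESC libraries differed from each other in many of these genes, and 5 of the 10 calls past the fold rested on ESC replicate 1. Without that library the count of genes lower past the fold was 5 in place of 10 (SLC16A3, PDK1, LDHA, PFKP and HK1), and the median was −0.63. The other 5 (HK2, GPI, PGK1, PFKFB3 and ALDOC) still fell by adjusted p in that fit. Each called value below that moved by more than 1.5 times is given with its value in that fit, in which the lone ESC library is assumed to vary like the NEC libraries.

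**Figure D1:**
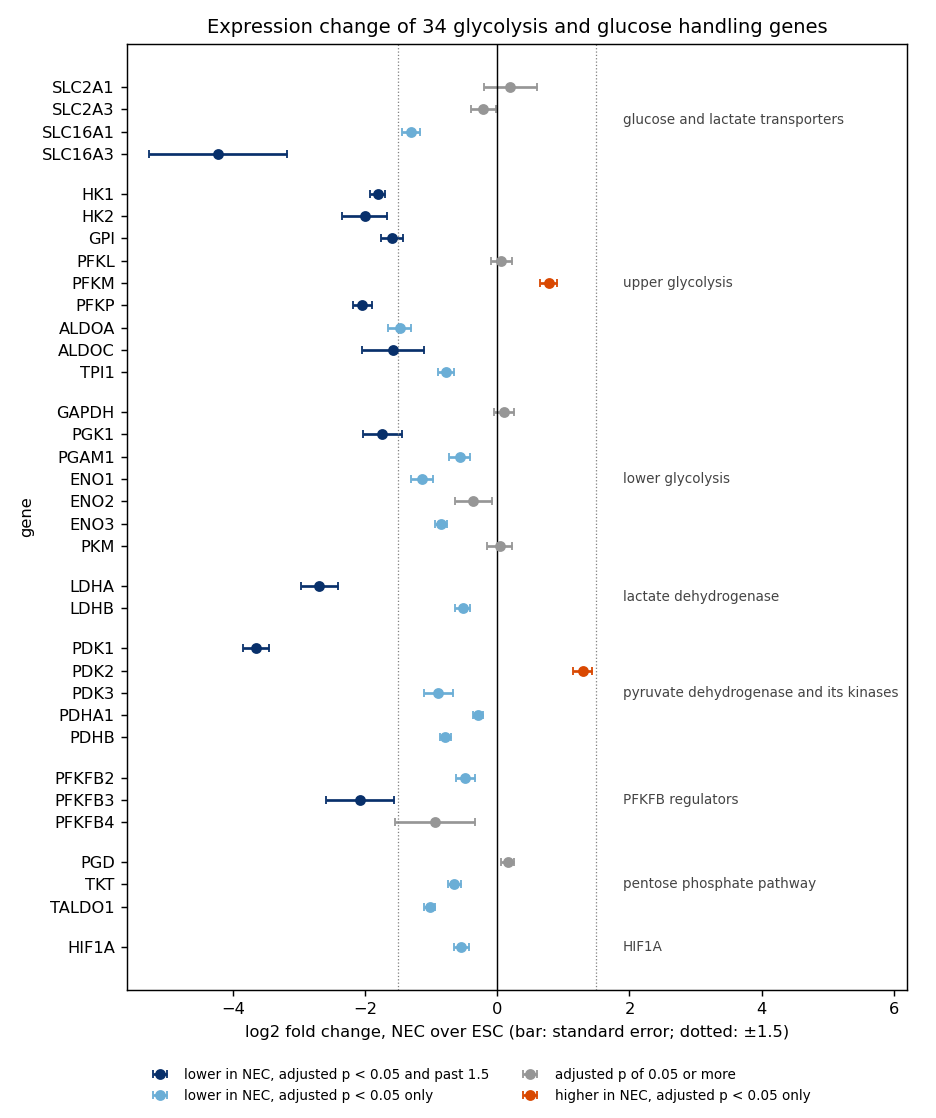
Log2 fold change of NECs over ESCs with its standard error (edgeR, 2 libraries per cell type) for the 34 tested genes, grouped by role, with dotted lines at the fold threshold of 1.5. The 10 dark blue genes lie to the left of the lower threshold, from −4.23 for SLC16A3 to −1.58 for ALDOC, and the only genes called higher are PDK2 and PFKM.

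The promoters of the 3 genes with the lowest log2 fold changes, and of the gene that rose most, are shown with these cores marked. Their number can thus be set beside the change in expression. The choice of SLC16A3 rested on ESC replicate 1, since without that library PFKP had a lower log2 fold change (−1.88). They are GRCh37 sequence on the plus strand, upstream of the start of the canonical GENCODE transcript, and capitals mark each ACGTG or GCGTG on either strand (CACGT and CACGC as read here), including palindromes CACGTG in which both strands match. The windows were SLC16A3 at chr17:80186668-80186917, LDHA at chr11:18415860-18416106 and PDK2 at chr17:48172465-48172648, with bases inside an annotated exon of the same gene left out, and for PDK1, whose sites lie inside such an exon, only the last 30 bases before the start at chr2:173420788-173420817.
SLC16A3: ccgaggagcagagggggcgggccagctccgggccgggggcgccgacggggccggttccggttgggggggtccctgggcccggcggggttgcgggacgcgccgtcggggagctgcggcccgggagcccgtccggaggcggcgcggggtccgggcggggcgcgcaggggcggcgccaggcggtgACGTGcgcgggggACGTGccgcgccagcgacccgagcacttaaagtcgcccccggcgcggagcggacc
LDHA: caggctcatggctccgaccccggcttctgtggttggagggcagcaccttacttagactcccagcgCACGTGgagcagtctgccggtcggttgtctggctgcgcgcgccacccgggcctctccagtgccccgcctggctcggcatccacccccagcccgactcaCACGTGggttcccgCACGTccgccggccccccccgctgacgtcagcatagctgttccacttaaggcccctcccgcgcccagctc
PDK1: ccctgctgcccgcCACGTccctCACGTacc
PDK2: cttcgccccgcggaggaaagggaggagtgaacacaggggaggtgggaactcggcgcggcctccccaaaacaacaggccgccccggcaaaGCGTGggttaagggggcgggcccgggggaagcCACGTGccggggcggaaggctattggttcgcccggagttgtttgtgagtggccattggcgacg
ACGTG was found 5 times in the 250 bases before the LDHA start, counting a palindrome once for each strand, and 2 times each for SLC16A3, PDK1 and PDK2. With a palindrome counted as 1 place, there were 3 places for LDHA, 2 each for SLC16A3 and PDK1 and 1 for PDK2. Over the 35 genes, 16 windows of 250 bases (45.7%) held ACGTG, and so did 20.5% of the windows of 19894 protein-coding genes. GCGTG was in 17 windows (48.6%) against 40.3% of all, and either motif in 23 (65.7%) against 51.4%. The windows compared were not matched for base composition or for expression level. Of the other genes that fell past the fold, PFKP held neither motif, and HK1 and GPI held GCGTG but no ACGTG. By the count for each strand, HK2, PGK1 and PFKFB3 held ACGTG 2 times each, and ALDOC 3 times. Genes that did not fall past the fold held ACGTG as well: PDHB 3 times and SLC16A1 2 times. ALDOA, GAPDH, PGAM1, ENO2, PDK3 and PGD held it 1 time each, and of these GAPDH, ENO2 and PGD were not called. A match is only a run of letters, and binding was not measured.

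Among the transporters, the lactate exporters fell while the glucose importers did not pass the test. SLC16A3 encodes MCT4, a lactate exporter of glycolytic cells, and measured 133 and 13.1 CPM in the ESC libraries and 3.37 and 4.34 CPM in the NEC libraries. The NEC libraries lay close together and below both ESC libraries, but ESC replicate 1 was 10.1-fold above ESC replicate 2. The gene fell with the lowest log2 fold change of the set (log2 fold change −4.23 ± 1.04, adjusted p = 0.0125), and without ESC replicate 1 the log2 fold change was −1.78 with an adjusted p of 0.000948. SLC16A1, encoding the related transporter MCT1, fell by a smaller amount, from 629 ± 39.0 to 255 ± 42.2 CPM (mean ± SD, n = 2; log2 fold change −1.30 ± 0.14, adjusted p = 0.000457).

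SLC2A1, encoding the glucose transporter GLUT1, measured 629.7 and 250.3 CPM in the ESC libraries and 418 and 591 CPM in the NEC libraries. Both NEC libraries lay between the ESC libraries (log2 fold change 0.20 ± 0.40, adjusted p = 0.689). Its direction therefore depended on the ESC library used, with a log2 fold change of 0.99 (adjusted p = 0.00791) without ESC replicate 1 and of −0.33 (adjusted p = 0.283) without ESC replicate 2. SLC2A3, encoding the high-affinity transporter GLUT3, measured 1135 and 762 CPM in the ESC libraries and 774 and 866 CPM in the NEC libraries and did not pass the test (log2 fold change −0.21 ± 0.20, adjusted p = 0.385), with 0.08 without ESC replicate 1 and −0.48 without ESC replicate 2. It has a near-identical copy, SLC2A14, between which reads may be split, and adding the counts of SLC2A14 changed no call.

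In the first steps of glycolysis, 7 of 9 genes fell, 5 of them past the fold, and PFKM rose. HK1, the broadly expressed hexokinase that phosphorylates glucose, measured 369 and 313 CPM in the ESC libraries and 94.0 and 100.1 CPM in the NEC libraries. The groups were well apart and each pair of libraries was close (3.51-fold lower in NECs, log2 fold change −1.81 ± 0.11, adjusted p = 7.04e-05). HK2, the inducible hexokinase, measured 263 and 125 CPM in the ESC libraries and 41.9 and 54.3 CPM in the NEC libraries. It fell 4.02-fold (log2 fold change −2.01 ± 0.34, adjusted p = 0.00273), and with ESC replicate 1 left out the log2 fold change was −1.39.

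GPI, which turns glucose 6-phosphate into fructose 6-phosphate, measured 576 and 409 CPM in the ESC libraries and 162 and 166 CPM in the NEC libraries and fell 3.01-fold (log2 fold change −1.59 ± 0.17, adjusted p = 0.000444). The 3 phosphofructokinase genes, which encode isoforms of the enzyme of the committed step, did not move together. PFKP, the platelet isoform, measured 176 and 137 CPM in the ESC libraries and 35.8 and 40.0 CPM in the NEC libraries and fell 4.12-fold (log2 fold change −2.04 ± 0.14, adjusted p = 9.92e-05). PFKM, the muscle isoform, measured 101 and 87.7 CPM in the ESC libraries and 177 and 146 CPM in the NEC libraries. Both NEC libraries lay above both ESC libraries, and PFKM rose 1.71-fold, under the fold threshold (log2 fold change 0.78 ± 0.13, adjusted p = 0.00243). PFKL, the liver isoform, measured 177 and 126 CPM in the ESC libraries and 162 and 153 CPM in the NEC libraries, with overlapping groups (log2 fold change 0.06 ± 0.16, adjusted p = 0.768), and its log2 fold change was 0.31 without ESC replicate 1 and −0.18 without ESC replicate 2. The start of PFKM overlaps SENP1 on the other strand, and counting did not use strand.

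ALDOA, the main aldolase, fell from 1216 ± 276 to 437 ± 22.2 CPM, just under the fold threshold (log2 fold change −1.48 ± 0.17, adjusted p = 0.000632). ALDOC, the brain aldolase, measured 103 and 34.2 CPM in the ESC libraries and 25.4 and 20.2 CPM in the NEC libraries. ESC replicate 2 was nearer to the NEC libraries than to ESC replicate 1, and the call was the weakest of the 10 (log2 fold change −1.58 ± 0.47, adjusted p = 0.0248). Without ESC replicate 1 its log2 fold change was −0.61, without NEC replicate 2 its adjusted p was 0.0705, and DESeq2 gave an adjusted p of 0.0529. TPI1, the triose phosphate isomerase, fell 1.72-fold (log2 fold change −0.78 ± 0.13, adjusted p = 0.00229).

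In the later steps, 4 of 7 genes fell, 1 of them past the fold. PGK1, which makes the first ATP of the pathway, measured 1281 and 664 CPM in the ESC libraries and 288 and 295 CPM in the NEC libraries. The NEC libraries were nearly equal, while ESC replicate 1 was 1.93-fold above ESC replicate 2. PGK1 fell 3.34-fold (log2 fold change −1.74 ± 0.29, adjusted p = 0.00254), with a log2 fold change of −1.21 without ESC replicate 1.

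GAPDH, the dehydrogenase that comes before PGK1, measured 3178 and 2661 CPM in the ESC libraries and 2988 and 3286 CPM in the NEC libraries. The groups overlapped and no change was detected (log2 fold change 0.10 ± 0.15, adjusted p = 0.585, from −0.025 without ESC replicate 2 to 0.22 without ESC replicate 1). PKM, the pyruvate kinase of the last step, measured 1286 and 879 CPM in the ESC libraries and 1134 and 1089 CPM in the NEC libraries, with both NEC libraries between the ESC libraries (log2 fold change 0.04 ± 0.19, adjusted p = 0.873, 0.32 without ESC replicate 1 and −0.22 without ESC replicate 2). Its isoforms M1 and M2 share most exons and cannot be separated in counts per gene.

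ENO1, the broadly expressed enolase, measured 3549 and 2816 CPM in the ESC libraries and 1322 and 1568 CPM in the NEC libraries and fell 2.20-fold (log2 fold change −1.14 ± 0.17, adjusted p = 0.00176). ENO2, known as the neuronal enolase, measured 194 and 116 CPM in the ESC libraries and 146 and 94.1 CPM in the NEC libraries. The groups overlapped and it did not pass the test (log2 fold change −0.36 ± 0.28, adjusted p = 0.301). Its value depended on the library: the log2 fold change was 0.031 (adjusted p = 0.923) without ESC replicate 1, −0.70 (adjusted p = 0.0432) without ESC replicate 2, −0.71 (adjusted p = 0.0644) without NEC replicate 1 and −0.083 (adjusted p = 0.804) without NEC replicate 2. ENO3, the muscle enolase, fell 1.81-fold (log2 fold change −0.85 ± 0.09, adjusted p = 0.000424). ENO3 shares 923 bases with PFN1 on the other strand, which had 25448 and 29625 counts in ESCs and 11088 and 15297 in NECs, and reads of the overlap cannot be told apart. PGAM1, the phosphoglycerate mutase, fell 1.48-fold (log2 fold change −0.57 ± 0.16, adjusted p = 0.0210), with an adjusted p of 0.109 without ESC replicate 1 and 0.0513 without NEC replicate 1, and has a near-identical copy, PGAM4.

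LDHA and LDHB both fell, LDHA far more. LDHA encodes the lactate dehydrogenase subunit that favours lactate production and measured 1283 and 743 CPM in the ESC libraries and 139 and 174 CPM in the NEC libraries. The NEC libraries lay far below both ESC libraries, a 6.46-fold difference (log2 fold change −2.69 ± 0.27, adjusted p = 0.000377), which was −2.27 on the log2 scale without ESC replicate 1. LDHB, the subunit more typical of oxidative tissues, measured 1406 and 1382 CPM in the ESC libraries and 939 and 1003 CPM in the NEC libraries. It fell 1.44-fold (log2 fold change −0.52 ± 0.11, adjusted p = 0.00755), and its adjusted p was 0.0565 without ESC replicate 1 and 0.0540 without ESC replicate 2.

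The kinases of pyruvate dehydrogenase changed in opposite directions. PDK1, known as a HIF1A target, measured 174 and 122 CPM in the ESC libraries and 12.5 and 11.1 CPM in the NEC libraries. The gap between the groups far exceeded that between replicates, a 12.6-fold difference (log2 fold change −3.65 ± 0.20, adjusted p = 4.26e-05), and the log2 fold change was −3.40 without ESC replicate 1. PDK2, a widely expressed kinase, measured 15.2 and 12.4 CPM in the ESC libraries and 36.2 and 31.0 CPM in the NEC libraries. It rose 2.44-fold, the highest log2 fold change of the set (log2 fold change 1.29 ± 0.15, adjusted p = 0.000609). PDK2 overlaps SAMD14 on the other strand by 2113 bases, and SAMD14 had 189 and 202 counts in ESCs and 678 and 622 in NECs, so reads of the overlap cannot be assigned to PDK2 alone. PDK3 fell from 19.4 ± 5.89 to 10.4 ± 0.0485 CPM (log2 fold change −0.89 ± 0.22, adjusted p = 0.0127), with −0.57 and an adjusted p of 0.0551 without ESC replicate 1. The subunits of the enzyme itself fell less, PDHA1 1.22-fold (log2 fold change −0.29 ± 0.08, adjusted p = 0.0197) and PDHB 1.73-fold (log2 fold change −0.79 ± 0.08, adjusted p = 0.000409). The call of PDHA1 was lost without either ESC library (adjusted p = 0.0719 and 0.134).

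The PFKFB genes encode bifunctional enzymes that make and remove fructose 2,6-bisphosphate, the activator of phosphofructokinase. PFKFB3, the isoform with the highest ratio of kinase to phosphatase activity, measured 225 and 68.4 CPM in the ESC libraries and 29.3 and 39.6 CPM in the NEC libraries. ESC replicate 1 was 3.28-fold above ESC replicate 2, and PFKFB3 fell 4.23-fold (log2 fold change −2.08 ± 0.51, adjusted p = 0.0124), with a log2 fold change of −1.01 without ESC replicate 1. PFKFB4 measured 92.1 and 20.1 CPM in the ESC libraries and 29.5 and 28.5 CPM in the NEC libraries. The NEC libraries were nearly equal and lay between the ESC libraries (log2 fold change −0.94 ± 0.60, adjusted p = 0.213), so that the sign was set by the ESC library: the log2 fold change was 0.50 (adjusted p = 0.0353) without ESC replicate 1 and −1.67 (adjusted p = 6.63e-05) without ESC replicate 2. PFKFB2 fell 1.40-fold (log2 fold change −0.49 ± 0.14, adjusted p = 0.0248), and it overlaps YOD1 on the other strand. Its adjusted p was 0.139 without ESC replicate 2 and 0.0758 without NEC replicate 2.

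Of the pentose phosphate genes, which make NADPH and ribose from glucose 6-phosphate, TALDO1 fell 2.03-fold (log2 fold change −1.02 ± 0.08, adjusted p = 0.000173) and TKT 1.57-fold (log2 fold change −0.65 ± 0.10, adjusted p = 0.00196). PGD measured 389 and 389 CPM in the ESC libraries and 413 and 455 CPM in the NEC libraries and did not pass the test (log2 fold change 0.16 ± 0.10, adjusted p = 0.208). HIF1A itself fell from 294 ± 4.58 to 201 ± 26.5 CPM (log2 fold change −0.55 ± 0.11, adjusted p = 0.00625). The abundance of the HIF1A protein, which is set mainly by its degradation, was not measured.

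**Figure D2:**
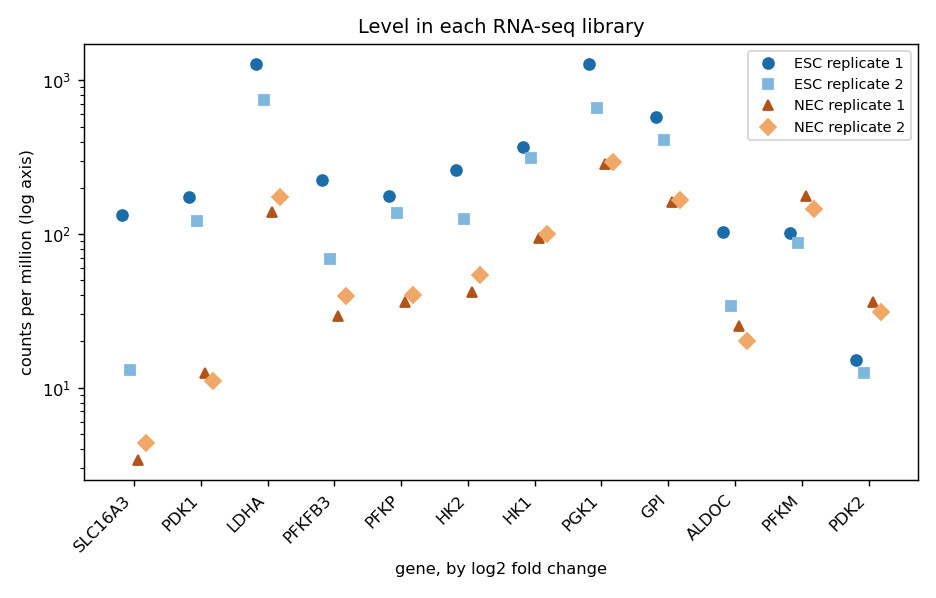
Level of the 10 genes that fell past the fold threshold and of the 2 that rose, in CPM on a log axis, with 1 point per library. ESC replicate 1 is the highest library for each of the 10 lowered genes, and the widest gap between ESC libraries is that of SLC16A3.

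Because members of an enzyme family changed by different amounts, the make-up of several families differed between the cell types. Shares were computed from CPM per kilobase of the canonical transcript and are a description. In the phosphofructokinase family, PFKP made up 41.7 and 42.2% in ESCs and 10.8 and 13.2% in NECs, and PFKM made up 20.3 and 22.9% in ESCs and 45.2 and 41.0% in NECs. The groups did not overlap for either isoform, so NECs held mainly PFKL and PFKM, while ESCs held mainly PFKP and PFKL. LDHA made up 34.7 and 23.8% in ESCs and 7.92 and 9.18% in NECs of the lactate dehydrogenase transcripts, LDHB being the rest.

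Among the PDK genes, PDK1 made up 40.6 and 41.0% in ESCs and 5.03 and 4.92% in NECs, and PDK2 made up 14.8 and 17.4% in ESCs and 61.1 and 57.5% in NECs. Thus PDK2 had the highest share in both NEC libraries, with reads of its overlap with SAMD14, which cannot be assigned to PDK2 alone, included. The order of PDK1 and PDK3 in ESCs depended on the length used, because the annotated lengths of both differ greatly between transcripts: over all annotated exons of the gene, PDK1 made up 73.8 and 72.2% in ESCs and 10.4 and 10.6% in NECs, and PDK2 82.1 and 80.6% in NECs. In the PFKFB family, the share of PFKFB3 was 63.4 and 63.7% in ESCs and 38.2 and 46.9% in NECs, and that of PFKFB4 was 33.3 and 24.0% in ESCs and 49.3 and 43.3% in NECs.

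The aldolase, enolase and hexokinase families kept the same leading isoenzyme in every library. ALDOA held 93.1 and 96.7% in ESCs and 94.2 and 95.6% in NECs, ENO1 held 89.0 and 88.8% in ESCs and 83.2 and 87.4% in NECs, and HK1 held 68.7 and 79.7% in ESCs and 77.8 and 74.2% in NECs. SLC16A1 held 77.4 and 97.0% in ESCs and 97.9 and 97.8% in NECs of the monocarboxylate transporter pair, where ESC replicate 1 stood apart from the other libraries. SLC2A3 led the glucose transporter pair in every library, with 61.4 and 72.9% in ESCs and 62.1 and 56.4% in NECs. Per kilobase, GAPDH had the highest level of the 35 genes in every library (2474, 2071, 2326 and 2557 CPM per kilobase), followed by ENO1 (1993, 1581, 742 and 881).

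**Figure D3:**
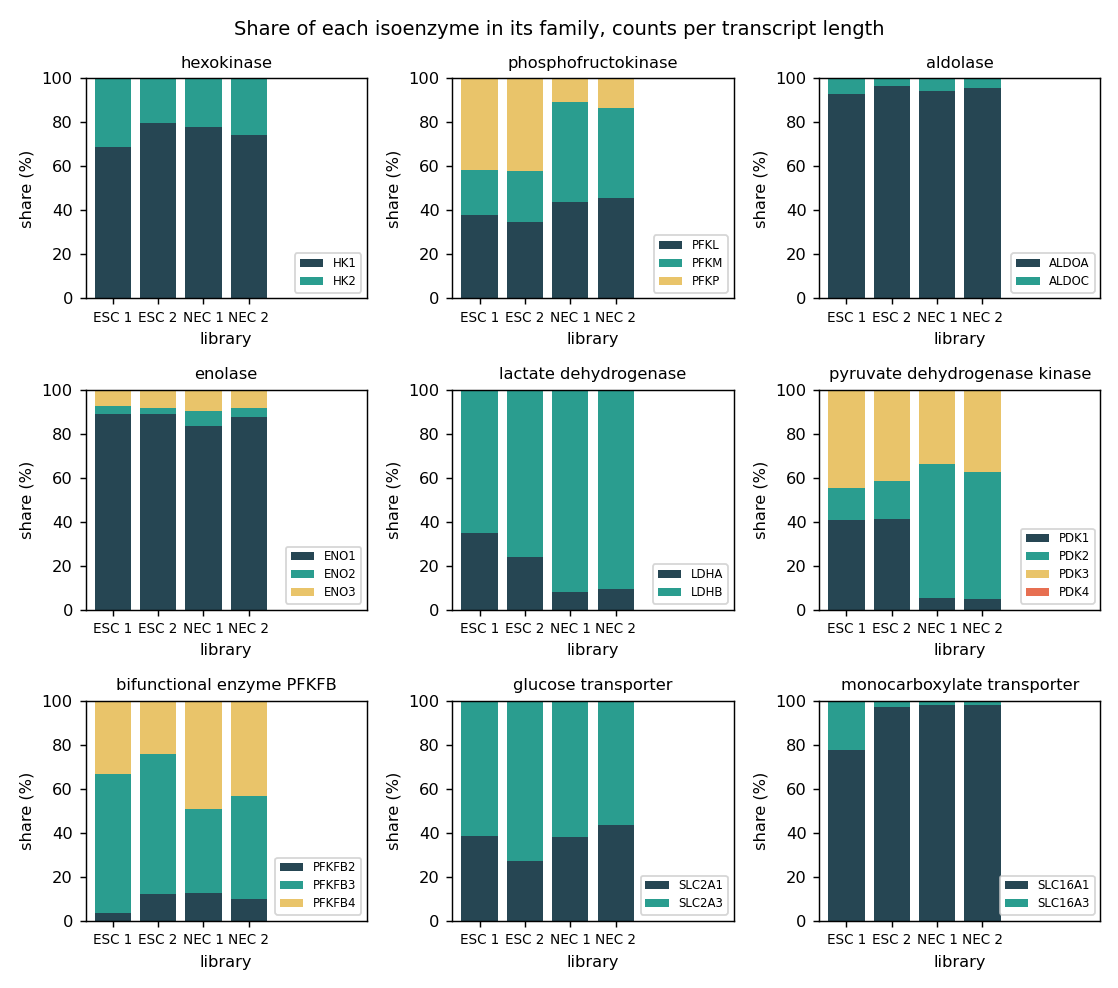
Share of each isoenzyme in its family in percent, from CPM per kilobase of the canonical transcript, with 1 stacked bar per library. The phosphofructokinase, lactate dehydrogenase and PDK bars differ between ESCs and NECs, while the aldolase and enolase bars are led by ALDOA and ENO1 throughout.

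The ESC libraries differed widely from each other in some of these genes. ESC replicate 1 exceeded ESC replicate 2 by more than 2-fold in 6 of the 34 genes (SLC16A3, PFKFB4, PFKFB3, ALDOC, SLC2A1 and HK2), against 0.791% of all tested genes, and was the higher library in 30, against 50.2% of all. The median log2 ratio of replicate 1 over replicate 2 was 0.35 in ESCs and −0.04 in NECs (with 0.5 CPM added to each), and no member differed by more than 2-fold between the NEC libraries, where 1.95% of all tested genes did. With 1 library on each side, this comparison has no replicate check and carries no test.

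A list of 26 hypoxia response genes, chosen with earlier results of these data known, moved with this difference. In ESC replicate 1, 15 of the 26 were more than 2-fold above ESC replicate 2, with a median log2 ratio of 1.40, and their summed level was 1903 and 782 CPM in ESCs and 1011 and 948 CPM in NECs. BHLHE40, a transcriptional repressor induced by low oxygen, measured 53.0 and 5.66 CPM in ESCs and 1.78 and 3.20 CPM in NECs, and PLOD2, a collagen lysyl hydroxylase, measured 236 and 66.3 CPM in ESCs and 14.7 and 11.0 CPM in NECs. Whether oxygen supply differed between these cultures was not tested. HIF1A mRNA was nearly equal in the ESC libraries, with 297 and 290.5 CPM.

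**Figure D4:**
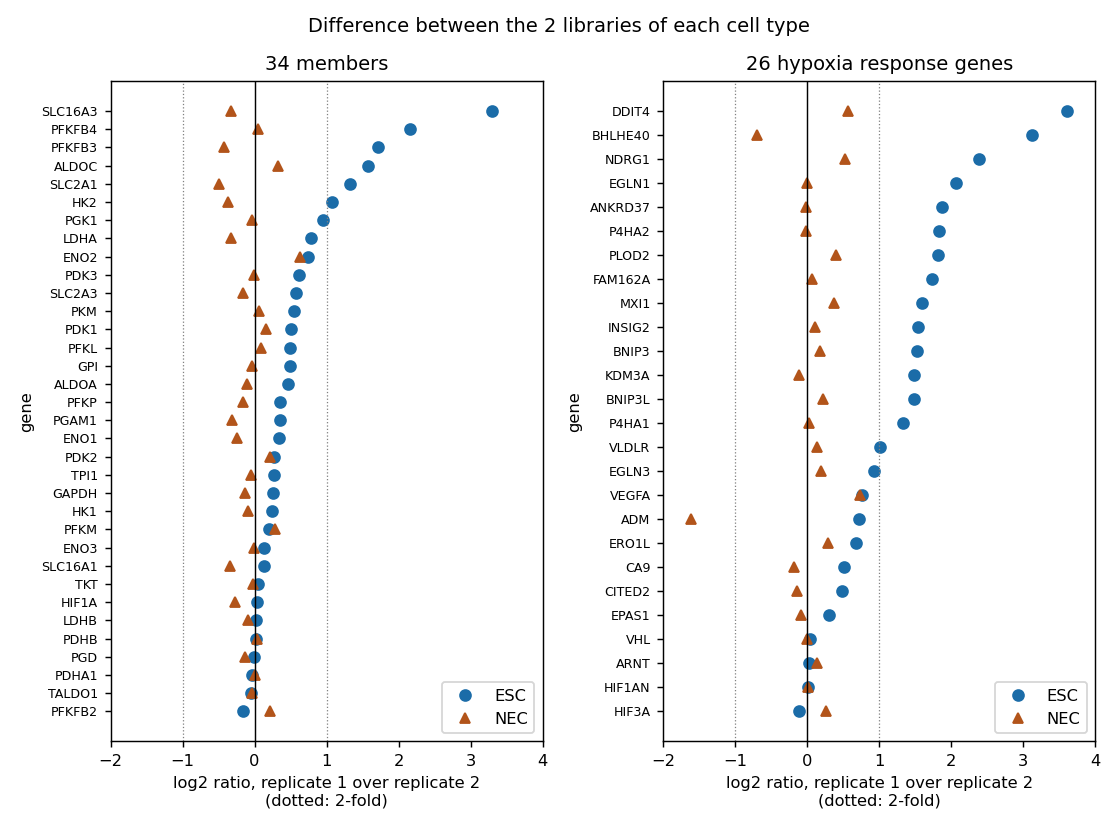
Log2 ratio of replicate 1 over replicate 2 within ESCs (circles) and within NECs (triangles) for the 34 genes and for 26 hypoxia response genes, with 0.5 CPM added to each value. Most ESC points lie to the right of 0, up to 3.29 among the members (SLC16A3), whereas the NEC points of the members stay within the dotted 2-fold lines.

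Other genes of glucose metabolism were examined from 7 lists holding 106 genes. Their counts by adjusted p stand beside 29.7% of all tested genes lower and 31.5% higher, and several are near those shares. Counts and medians that moved by more than 1.5 times without 1 library are given with their value in that fit, an alternative added after seeing the data. The list of 26 hypoxia response genes also holds partners and regulators of HIF1A, among them ARNT, VHL, HIF1AN, HIF3A and CITED2. These were the 5 that rose, while 7 others fell, with a median log2 fold change of −0.48 over the list. This balance depended on the ESC library: 6 fell and 7 rose without ESC replicate 1, with a median of 0.27, and 15 fell and 2 rose without ESC replicate 2, with a median of −0.99. Without NEC replicate 1, 4 fell and 3 rose. PLOD2 fell (log2 fold change −3.55 ± 0.59, adjusted p = 0.00247), with a log2 fold change of −2.39 without ESC replicate 1. BHLHE40 fell as well (log2 fold change −3.53 ± 1.00, adjusted p = 0.0211). Its log2 fold change was −1.20 without ESC replicate 1, and its call did not hold without NEC replicate 1. CITED2, a competitor of HIF1A for its coactivators, rose (log2 fold change 1.72 ± 0.16, adjusted p = 0.000303). Of 12 tested glycolysis genes outside the set, 5 fell and 2 rose, with a median of −0.05 (3 fell and the median was −0.09 without ESC replicate 1). PGAM2, the muscle mutase, rose (log2 fold change 2.53 ± 0.32, adjusted p = 0.000836), and PKLR, the liver and red cell pyruvate kinase, rose with a log2 fold change of 2.03 ± 0.35. Neither exceeded 3.70 CPM in any library. PGAM4 fell (log2 fold change −1.98 ± 0.14, adjusted p = 9.71e-05), but it is the copy of PGAM1 and its counts are uncertain, and LDHC, the testis subunit, had 22 and 24 counts in ESCs and 1 and 2 in NECs.

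Of 14 tested genes of gluconeogenesis and glycogen, 7 fell and 1 rose, with a median of −0.64 (−0.41 without ESC replicate 1). UGP2, which makes the UDP-glucose used for glycogen, measured 638 and 552 CPM in ESCs and 62.9 and 84.3 CPM in NECs and fell 8.08-fold (log2 fold change −3.01 ± 0.17, adjusted p = 4.94e-05). FBP1, the gluconeogenic fructose bisphosphatase, fell (log2 fold change −2.40 ± 0.43, adjusted p = 0.00351) and its relative FBP2 rose (log2 fold change 1.96 ± 0.41, adjusted p = 0.00660), both from few counts. Of 8 tested pentose phosphate genes outside the set, 5 rose and 2 fell, with a median of 0.50 (3 rose without ESC replicate 2, and 1 fell without ESC replicate 1 or NEC replicate 1). Its call past the fold was TKTL1, a transketolase-like gene, with 0 and 1 counts in ESCs and 84 and 28 in NECs.

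Of 10 tested further transporters, 4 fell and 3 rose (median −0.19, and −0.10 without NEC replicate 1), among them SLC2A12, encoding GLUT12, which rose (log2 fold change 1.79 ± 0.21, adjusted p = 0.000641), and SLC16A7, encoding MCT2, which fell (log2 fold change −1.89 ± 0.31, adjusted p = 0.00240). Of 9 tested genes of pyruvate entry into mitochondria, 4 fell and 1 rose, none past the fold, and 0 rose without either ESC library or without NEC replicate 1. Of 14 regulators, 7 fell and 4 rose. MYC, an activator of glycolytic genes, measured 94.3 and 86.8 CPM in ESCs and 9.36 and 18.5 CPM in NECs and fell (log2 fold change −2.69 ± 0.28, adjusted p = 0.000436), and PPARGC1B, a coactivator of mitochondrial genes, fell as well (log2 fold change −2.39 ± 0.18, adjusted p = 0.000144). TXNIP, whose product limits glucose uptake and whose mRNA responds to glucose, measured 11.1 and 5.14 CPM in ESCs and 289.7 and 131 CPM in NECs and rose 26.4-fold (log2 fold change 4.72 ± 0.50, adjusted p = 0.000445). ESRRB rose from 3 and 2 counts in ESCs to 30 and 30 in NECs.

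In PCHi-C, fragments that contact a bait are called promoter-interacting regions (PIRs), here at a CHiCAGO score of at least 12, a score that weights the evidence for a contact by distance. The 35 baits had 217 PIRs in the merged ESC list and 181 in the merged NEC list, of which 100 were in both. The single ESC replicates held 156 and 192 PIRs, and the NEC replicates, with 155 and 162, overlapped that range. The median bait had 5 PIRs in ESCs and 3 in NECs, against 3 in both over the 18038 baits with a gene start, and 5 and 6 of the 35 baits (14.3 and 17.1%) had none, against 18.3 and 16.5% of all baits. The baits of GPI, PFKL, PGK1 and TKT had no PIR in either merged list. The canonical transcript of HK1, PFKM, ALDOA, PGK1, PFKFB2 and PFKFB4 starts in a fragment for which no list held a bait call, and those of LDHB and PFKFB3 start in other baits, so for these genes the bait used may not be that of the main promoter.

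Contacts seen in both replicates of 1 cell type and in neither of the other were counted as gained or lost, and contacts seen in all 4 as retained. There were 5 gained, 22 lost and 21 retained PIRs. At least 1 gained PIR was found for 5 of 35 baits (21.2% of all baits), at least 1 lost PIR for 11 (22.3% of all baits), and at least 1 retained PIR for 12 (19.5% of all baits). The number of PIRs was higher in both NEC replicates than in both ESC replicates for 2 baits, LDHB and TKT (13.6% of all baits), and lower for 4, PFKP, PGAM1, ENO3 and PDK2 (12.7% of all baits). A contact absent from a list may lie just under the score of 12, and with 2 replicates on each side no test of a single bait could pass.

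The 3 genes with the lowest log2 fold changes had 0 to 4 PIRs in each merged list. The PDK1 bait had 2 PIRs in each merged list, and its highest scoring PIR, an intergenic fragment 380.0 kb away, was retained, and its 4 replicate scores ran from 12.98 to 15.62. LDHA had 4 PIRs in ESCs and 0 in NECs, but the single replicates did not separate, with 1 and 2 PIRs for ESCs against 0 and 2 for NECs. SLC16A3 had 3 in each list, and its bait of 36876 bases also held the starts of CCDC57 and of 2 further transcripts, so its contacts cannot be given to SLC16A3 alone. The PFKFB3 bait retained an intergenic PIR 258.1 kb away, which scored 21.26 in the ESC list and 28.64 in the NEC list. The same fragment was retained by the bait holding the canonical PFKFB3 start, with 17.13 and 20.20, while expression of PFKFB3 fell.

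Of the hexokinases, HK2 had 7 and 9 PIRs in the merged lists with no gained or lost one, and HK1 had 5 and 1, with 0 and 1 in the ESC replicates against 1 and 0 in the NEC replicates. The top PIR of HK2 in ESCs, 128.8 kb away, scored 18.17 in ESCs and 13.05 in NECs. PFKM, which rose in NECs, had 17 PIRs in the ESC list and 5 in the NEC list, but its replicates overlapped, with 4 and 9 in ESCs against 5 and 5 in NECs. Both of its lost PIRs lay in VDR, which encodes the vitamin D receptor, at 261.4 and 234.6 kb, and its gained PIR lay in C12orf41 at 562.0 kb. Its bait also held the start of SENP1. PFKP lost a PIR 862.2 kb away that scored 14.60.

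ALDOA had 7 and 8 PIRs, of which 4 were lost, at the promoter fragments of MAZ, MVP, HIRIP3 with INO80E, and C16orf54. The HIRIP3 and INO80E fragment still scored 13.54 in the merged NEC list. ALDOC retained contacts with the adjacent promoter fragments of PIGS (30.46 in ESCs and 28.03 in NECs) and UNC119 (22.79 and 21.96). SLC16A1 retained a contact 248.5 kb away with the fragment of RHOC and PPM1J, scoring 23.02 and 29.73, and SLC2A1 retained 1 PIR 33.6 kb away, scoring 17.37 and 17.28.

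GAPDH had the most contacts, 40 in ESCs and 41 in NECs, of which 30 were in both lists and 7 were retained. Its replicates ran from 21 to 42 in ESCs and from 23 to 34 in NECs. The top PIR in NECs lay in CHD4 at 59.3 kb and scored 23.15 in ESCs and 27.55 in NECs. It gained a PIR in PLEKHG6 and lost 4, in TNFRSF1A, NCAPD2, ZNF384 and at IFFO1. GAPDH lies near TPI1 and ENO2 on chromosome 12, and the ENO2 bait contacted the TPI1 bait with scores of 15.07 in ESCs and 20.26 in NECs, in 3 of 4 replicates. TPI1 lost a contact in CHD4 at 273.7 kb, retained one in ATN1 at 62.1 kb and gained one at 290.2 kb, scoring 12.94. ENO2 retained 2 contacts, the strongest with the C12orf57 fragment (19.56 and 25.52).

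The SLC2A3 bait had 0 PIRs in ESC replicate 1 and 12, 14 and 9 in the other replicates, so its ESC value rested on 1 replicate. Its top PIRs were the promoter fragments of DPPA3, 226.5 kb away, with 20.23 in ESCs and 27.55 in NECs, and of FOXJ2, 100.7 kb away, with 12.03 and 28.05. PDHB lost 3 contacts, with the fragments of DNASE1L3 (24.51 in ESCs), ABHD6 and a transcript in FAM107A, and retained that of ACOX2. PDHA1 gained the fragment of SH3KBP1 at 544.9 kb, scoring 13.95. PDK2, which rose, had 6 and 5 PIRs and lost 2, the fragment of SAMD14 at 32.8 kb and a fragment 7.7 kb away inside its own gene, which still scored 12.39 in the merged NEC list. PDK3 lost the fragment of PCYT1B-AS1, PGAM1 lost PIRs in UBTD1 and near AVPI1, and PFKFB3 lost one in IL15RA. HIF1A had 16 and 15 PIRs, among them 1 gained, 1 lost and 1 retained PIR within PRKCH, 186.7 to 231.9 kb away.

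The remaining baits had neither a gained nor a lost nor a retained PIR. ENO3 had 12 PIRs in ESCs and 5 in NECs, from a bait that also held the start of PFN1, and TALDO1 had 8 and 1. LDHB had 6 and 5, PFKFB2 1 and 5, PFKFB4 4 and 1, PGD 3 and 1, PDK4 2 and 0, ENO1 1 and 1 and PKM 0 and 1. These merged numbers were not borne out by every replicate: TALDO1 had 4 and 1 in the ESC replicates against 5 and 1 in the NEC replicates, and all 7 PIRs of PDK4 in replicates came from ESC replicate 2.

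**Figure D5:**
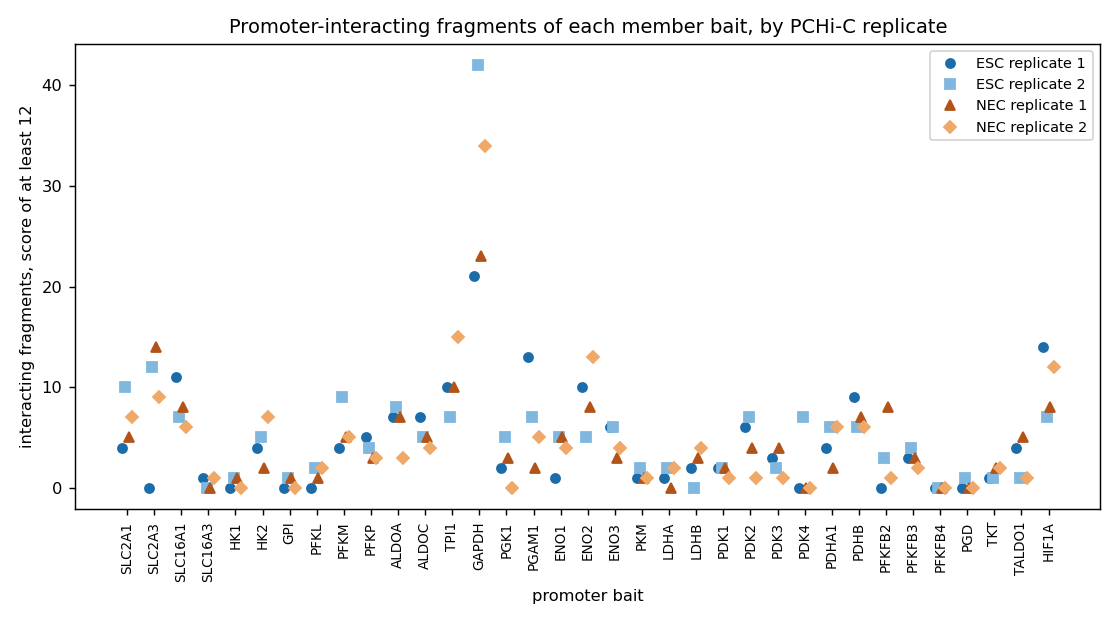
Number of PIRs with a CHiCAGO score of at least 12 for each of the 35 baits, with 1 point per PCHi-C replicate. GAPDH reaches 42 PIRs, most baits have fewer than 10, and for most baits the ESC and NEC points overlap.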

How the data were processed

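RNA-seq libraries were made with a poly(A) protocol and sequenced as single reads. The authors trimmed reads, mapped them to GRCh37 (Bowtie 1.0.0 and TopHat2 2.0.8b, per the submitters' processing notes) and deposited raw counts per gene on Ensembl gene models, counted without regard to strand. PCHi-C reads were filtered with HiCUP, and the authors deposited lists of HindIII fragment pairs with a CHiCAGO score of at least 12, per replicate and for the replicates merged. The merged lists held 99302 calls in ESCs and 99181 in NECs, counted for each bait. A contact between baits can count from each end, so these are not the paper's numbers of significant interactions.

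Genes with low counts were removed (filterByExpr, minimum count 10), which left 17564 of 31017, and edgeR 4.0.16 (R 4.3.3) was run with TMM scaling and the quasi-likelihood test. Calls required an adjusted p below 0.05 and, as in the study, a change of more than 1.5 on the log2 scale in either direction. CPM used TMM-scaled library sizes, and the standard error of a log2 fold change was its size divided by the square root of the F statistic. The procedure was tested on simulated data. Alternatives were DESeq2 1.42.0, other scalings and filters, a replicate block, each library left out, a score of 15, contacts within 10 kb and other bait definitions. All 74 bait ends checked in the GRCh37 sequence lay at HindIII sites. Transcript lengths and promoter windows were taken from GENCODE annotation on GRCh37. Tables and figures were made with Python 3.11.15.

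All 35 members were named, as were up to 2 called genes with the highest and up to 2 with the lowest log2 fold change from each further list, the top PIR of a bait, and gained and lost PIRs. The members and lists were chosen with earlier results of these data known. The Hi-C samples were not used here. The detection floor covers counting error only, whereas the SDs and standard errors include the spread between libraries.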

Additional observations from a re-analysis of the deposited data

How the results depend on the processing

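The 11 alternatives of the expression test gave 374 values for the 34 tested genes, of which 350 kept their sign and their side of an adjusted p of 0.05, 11 lost the threshold, 5 gained it and 8 changed sign. No gene called past the fold changed sign. Leaving out each RNA-seq library gave 5 to 12 genes lower past the fold, 0 higher past it, 20 to 23 lower and 2 to 4 higher by adjusted p alone, and a median of −0.92 to −0.63. Without ESC replicate 1, 5 were lower past the fold, and by adjusted p 20 were lower and 4 higher. In 7 genes, none of them called, the sign depended on the library left out: the log2 fold change ran from −0.33 to 0.99 for SLC2A1 (with −0.07 without NEC replicate 2), −1.67 to 0.50 for PFKFB4, −0.025 to 0.22 for GAPDH, −0.71 to 0.031 for ENO2, −0.48 to 0.084 for SLC2A3, −0.22 to 0.32 for PKM and −0.18 to 0.31 for PFKL. The cause was not tested.

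With a replicate block, 9 genes were lower past the fold (ALDOC was not), 2 rose and 25 fell by adjusted p (ENO2 passed, adjusted p = 0.0111), with a median of −0.78. The labels share replicate numbers without naming a shared culture. The deviations of same-numbered libraries from the mean of their cell type correlated at 0.074. The pair of replicate 2 mirrors that of replicate 1, so this is a single value. Nothing shows that the numbers pair the libraries. DESeq2 also called 9 lower past the fold, and the other scalings and filters 10. Without the filter PFKFB4 fell by adjusted p (0.0135). Adding counts of processed pseudogenes was not run, since 0 symbols in the count table matched the naming rule for them.

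Contact counts depended on thresholds. At a score of 15 there were 70 PIRs in ESCs, 63 in NECs, 35 shared, 0 gained, 5 lost and 4 retained. With PIRs within 10 kb counted as shared, 142 were shared, 8 gained, 22 lost and 43 retained. Over the 40 baits that held any annotated transcript start, 7 were gained, 18 lost and 22 retained. Over the 19 baits with 1 gene start, there were 75, 61 and 33, with 1 gained and 12 lost, fewer by construction. Leaving out each PCHi-C replicate gave 9 to 96 gained and 27 to 115 lost PIRs, the high values where a single replicate decides the calls, and 156 to 192 PIRs in ESCs and 155 to 162 in NECs. PDK4 was at the floor and was not tested, and each contact rests on 2 replicates per cell type.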
